A study of Mus musculus with 30 samples.

Results

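In postnatal mouse sclera, the collagen-rich outer coat of the eye, 10 genes of fibroblast growth factor (FGF) signaling were followed. They were the ligands Fgf1, Fgf2, Fgf7, Fgf10 and Fgf18 and the receptors Fgfr1, Fgfr2, Fgfr3, Fgfr4 and Fgfrl1. These are 10 of the 19938 genes that carried a transcript cluster, the array's unit of measurement, with exactly 1 gene symbol. The choice was made by symbol and not by signal, and each of the 10 genes was represented by 1 transcript cluster. The mice were Balb/cJ, an inbred strain with an unpigmented eye, and 6 were taken at each of 5 ages, namely week 1, 2, 3, 6 and 8. Per the methods, each of the 30 arrays of the type Mouse Gene 1.0 ST held the RNA of a single mouse, and the labels name biological replicates. However, 1 array was left out for the reason given below. The labels name no transgene or treatment, and the methods state that the mice were of the same family. Sex was not stated.

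FGFs are secreted proteins that bind receptor tyrosine kinases together with heparan sulfate, a sulfated sugar chain on the cell surface and in the matrix. Ligand binding pairs the receptors, which then signal through adaptor proteins to the MAP kinase, phosphatidylinositol 3-kinase and phospholipase C gamma pathways. Fgf7 and Fgf10 are typically made by mesenchymal cells and act on the epithelial form of Fgfr2, whereas Fgf2 is a general mitogen for fibroblasts, and in eye research FGF2 has been studied in relation to scleral remodeling. The splice forms of the receptors, on which ligand choice depends, are not separated by these transcript clusters.

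Values are the authors' log2 signals, on which a difference of 1 is a 2-fold change, and levels of different genes were not compared because each has its own probes. Ages were compared in limma, with 1 fit to 29 arrays and p-values adjusted by the Benjamini-Hochberg method over 35556 transcript clusters. A gene was called where the fold change was at least 2 and the adjusted p was 0.05 or less. A gene is said below to have risen or fallen where the adjusted p alone passed. The deposited values of week 2 replicate 4 equalled the mean of the other 5 arrays of that week in all 35556 transcript clusters, with a largest difference of 8e-05. This array therefore added no values of its own and was left out, so that week 2 is described and tested by 5 arrays and each other week by 6. In week 6 the mean of replicates 4 and 6 equalled the mean of the other 4 arrays in every cluster (largest difference 7.5e-05), so that these 6 arrays hold 1 independent difference fewer than their number allows. How these equalities arose was not tested. Fitting all 30 arrays left the fold changes as they were, and for the 10 genes in the 4 successive comparisons and in week 8 versus 1 each call and each passing of the adjusted p was the same with all 30 arrays and with a term for the 2 tied arrays of week 6.

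Array medians were 6.15 to 6.37, and arrays of the same week correlated at 0.954 to 0.991. The spread of signals within an array, taken as the interquartile range, averaged 2.70, 2.36, 2.75, 2.44 and 2.53 for weeks 1, 2, 3, 6 and 8, so that weeks 2 and 6 were narrower than weeks 1 and 3. Because this range differed between weeks, fits below that hold it as a covariate cannot fully separate it from age. The markers of fibroblasts and matrix that define sclera had a list mean of 9.29 or more in each week. Markers of striated muscle, retina, lens and surface epithelium also gave signal, at levels that differed between ages. The surface epithelium list averaged 10.65 or more in weeks 2, 3, 6 and 8. The striated muscle list averaged 10.71 in week 1 and 10.11 in week 8. These lists hold different probes, so their means do not rank the cell types by amount. Because whole tissue was measured, fewer cells of a type and less RNA per cell cannot be told apart. The authors' methods name a removal of batch effects by scan date, and scan date and age cannot be told apart here because no scan dates were used.

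Of the 10 genes, 9 differed over the 5 weeks by the moderated F test, the exception being Fgfr2 with an adjusted p of 0.16. The background was almost as high, since 89.8% of all transcript clusters passed this test. By the rule of 2-fold change, Fgfr1 was upregulated in week 3 versus 2 and Fgfr3 was downregulated in week 6 versus 3, and no other successive comparison called a member. The number called was therefore 0 of 10 in week 2 versus 1, where 11.5% of all transcript clusters were called. It was 1 of 10 in week 3 versus 2 against a background of 4.3%, and 1 of 10 in week 6 versus 3 against 7.58%. In week 8 versus 6 it was 0 of 10 against 3.77%, and in week 8 versus 1 it was 0 of 10 against 7.19%. In the comparisons with none called, 5, 3 and 4 members had an unadjusted limma p under 0.05. The counts of 0 in week 2 versus 1 and in week 8 versus 1 each rested on an array. Without week 2 replicate 5, Fgfr1 was called in week 2 versus 1 with a log2 fold change of -1.03, and without week 8 replicate 2, Fgfr3 was called in week 8 versus 1 with 1.01. Week 8 replicate 2 stood apart in 3 marker lists, and week 2 replicate 5 had the highest lens fibre mean of its week (8.26, where the lowest was 6.09). Both were left out after seeing the data.

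By the adjusted p alone, 5 of the 10 genes changed in week 2 versus 1 and 4 in week 3 versus 2, where 65.6% and 46.8% of all transcript clusters did. These counts were 3 and 0 when the array interquartile range was a covariate. In week 6 versus 3 the count was 9 of 10, all but Fgfr2, against a background of 54.4%, and 5 of 10 with that covariate. It was 3 of 10 in week 8 versus 6 against 35%, and 3 of 10 in week 8 versus 1 against 53%. The 9 that changed in week 6 versus 3 went both ways, since Fgf2, Fgf7, Fgf10 and Fgfr4 rose whereas Fgf1, Fgf18, Fgfr1, Fgfr3 and Fgfrl1 fell. Those that rose lay below the median signal of all transcript clusters, and those that fell lay above it. The array interquartile range was wider in week 3 than in week 6, at 2.75 and 2.44, and its part in this split was not tested. The weekly mean was highest in week 3 for 6 members, namely Fgf1, Fgf18, Fgfr1, Fgfr2, Fgfr3 and Fgfrl1, while 18.1% of all transcript clusters were highest in that week. These 6 were the members above the median signal, whereas the 18.1% is over bright and dim clusters together. The weekly mean was highest in week 1 for Fgf7 and Fgfr4 and in week 6 for Fgf2 and Fgf10. When the weeks of a gene were ordered by their means, the arrays of weeks next to each other in that order overlapped in each of the 10 genes.

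**Figure D1:**
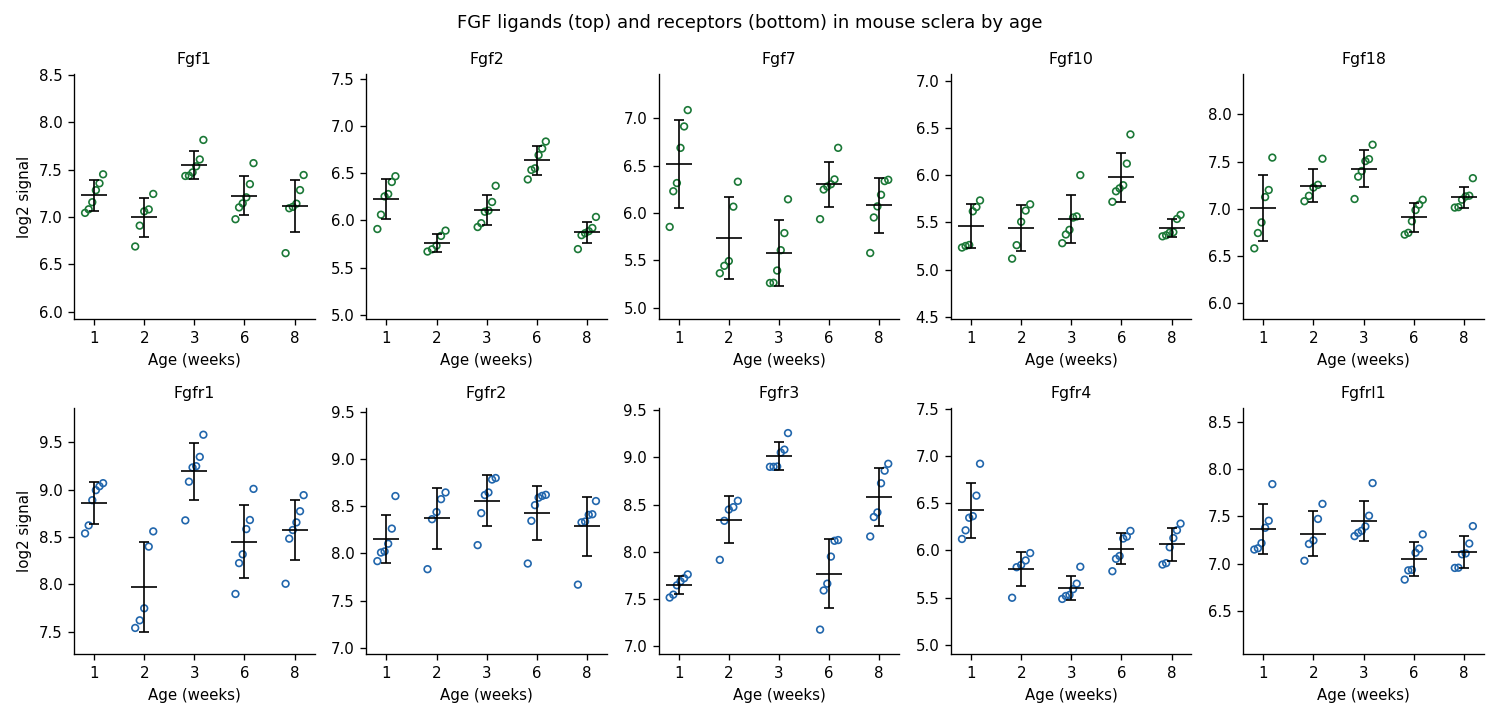
Log2 signal of the 5 ligands (top) and 5 receptors (bottom) by age in weeks, each on an axis of the same length. Circles are single arrays (n = 6 per week, 5 in week 2), and black bars are the mean and SD. Fgfr1 and Fgfr3 have their highest means in week 3, at 9.20 and 9.01, whereas Fgf7 and Fgfr4 have their lowest means there, at 5.58 and 5.60.

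Fgfr1, the receptor most typical of mesenchymal cells, went down, up and down again over the first 6 weeks. Its log2 signal ran from 8.54 through a median of 8.94 to 9.07 in week 1 and from 7.54 through 7.75 to 8.56 in week 2. In week 3 it ran from 8.68 through 9.24 to 9.58. The highest array of week 2 lay below the lowest array of week 3, and it just passed the lowest of week 1. The later arrays ran from 7.90 through 8.45 to 9.01 in week 6 and from 8.01 through 8.61 to 8.94 in week 8, a range between those of weeks 2 and 3 that overlapped both.

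Fgfr1 fell by 0.89 on the log2 scale in week 2 versus 1 (SE 0.20, limma adjusted p = 0.000395). It rose by 1.22 in week 3 versus 2 (SE 0.20), a 2.34-fold change with a limma adjusted p of 3.09e-05. In week 6 versus 3 the signal fell by 0.74 (SE 0.19, limma adjusted p = 0.00177). With the array interquartile range as a covariate none of these 3 steps passed, at -0.68 (adjusted p = 0.0778), 0.98 (0.0711) and -0.55 (0.105), and under quantile normalization the rise was 0.95 and no longer called. The week 8 versus 1 difference of -0.29 did not pass (adjusted p = 0.205). Ordered by their means the weeks ran 3, 1, 8, 6 and 2, and no neighbours in this order passed, the closest being 6 and 2 (difference 0.48, adjusted p = 0.0515). The 15 measured fibroblast and matrix markers had means of 10.43, 9.29, 9.92, 9.55 and 9.52 at weeks 1, 2, 3, 6 and 8. This mean went in the direction of Fgfr1 in week 2 versus 1, 3 versus 2 and 6 versus 3. It went the opposite way in week 8 versus 6 and week 3 versus 1, where Fgfr1 did not pass (limma adjusted p = 0.669 and 0.148). In week 8 versus 6 the median log2 fold change of the list was 0.06, which was the direction of Fgfr1. The 8 endothelium markers were, like Fgfr1, highest in week 3, with means of 8.75, 8.38, 9.16, 7.83 and 7.81. Of the 15 fibroblast and matrix markers, 10 were called as downregulated in week 2 versus 1 and 3 as upregulated in week 3 versus 2. Of all transcript clusters 11.5% and 4.3% were called in these steps. Other lists also went down and then up. Of 10 retinal pigment epithelium markers 9 were called down and then 9 up, of 17 photoreceptor markers 16 and 10, and of 9 macrophage markers 5 and 4. Surface epithelium instead had 13 of 14 called up in the first step, and striated muscle had 0 of 18 called in the second. The part of any of these cell types in the Fgfr1 signal was not tested.

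Fgfr3, a receptor best known as a brake on the growth of cartilage and also made by epithelia, had the widest range of weekly means of the 10 genes, 1.37. Its arrays ran from 7.52 through 7.67 to 7.76 in week 1, from 7.91 through 8.45 to 8.54 in week 2 and from 8.90 through 8.98 to 9.26 in week 3. The 3 weeks did not overlap, and each was above the one before. In week 6 the arrays ran from 7.18 through 7.81 to 8.12, all below the arrays of week 3. In week 8 they ran from 8.16 through 8.57 to 8.93, all above those of week 6.

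Each of the 4 successive differences of Fgfr3 passed. The signal rose by 0.69 in week 2 versus 1 (SE 0.15, limma adjusted p = 0.000243) and by 0.67 in week 3 versus 2 (adjusted p = 0.000793). The second rise did not pass with the array interquartile range as a covariate, where it was 0.38 with an adjusted p of 0.359. Over both steps, week 3 versus 1, Fgfr3 was called at 2.58-fold (log2 fold change 1.37, limma adjusted p = 2.79e-08), a comparison in which 7.15% of all transcript clusters were called. It then fell by 1.24 in week 6 versus 3 (SE 0.14), which was 2.37-fold with a limma adjusted p of 5.1e-08 and remained called with quantile normalization (-1.11) and with the covariate (-1.01). It rose by 0.81 in week 8 versus 6 (limma adjusted p = 7.01e-05) and was 0.93 higher in week 8 than in week 1 (adjusted p = 7.96e-06). Ordered by their means the weeks ran 3, 8, 2, 6 and 1, and of the weeks next to each other in this order, 8 and 2 (adjusted p = 0.255) and 6 and 1 (adjusted p = 0.471) did not pass.

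The 14 measured markers of surface epithelium, mostly keratins and desmosomal genes of cornea and conjunctiva, averaged 8.74 in week 1 and 10.97, 10.84, 10.65 and 11.10 in weeks 2, 3, 6 and 8. They rose together with Fgfr3 in week 2 versus 1, when 13 of 14 were called. In week 6 versus 3, when Fgfr3 fell 2.37-fold, 3 of the 14 were called as downregulated and 1 as upregulated. Of the 8 endothelium markers, 6 were called as downregulated in that step (median log2 fold change -1.16), where 7.58% of all transcript clusters were called. In week 2 versus 1, when Fgfr3 rose, 2 of these 8 were called as downregulated and 0 as upregulated. The 8 cartilage-type matrix markers, among them Col2a1 and Acan, averaged between 6.42 and 6.60 in every week. Of these, 1 was called as upregulated in week 2 versus 1, where 11.5% of all transcript clusters were called, and 0 in week 6 versus 3. By the adjusted p alone, 3 rose and 2 fell in week 2 versus 1, where 65.6% of all passed. In week 6 versus 3, 2 rose and 2 fell, where 54.4% passed. In week 3 versus 2, 1 was called as upregulated, and in week 8 versus 1, 1 as downregulated. The part of epithelial and endothelial content in the Fgfr3 signal was not tested.

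**Figure D2:**
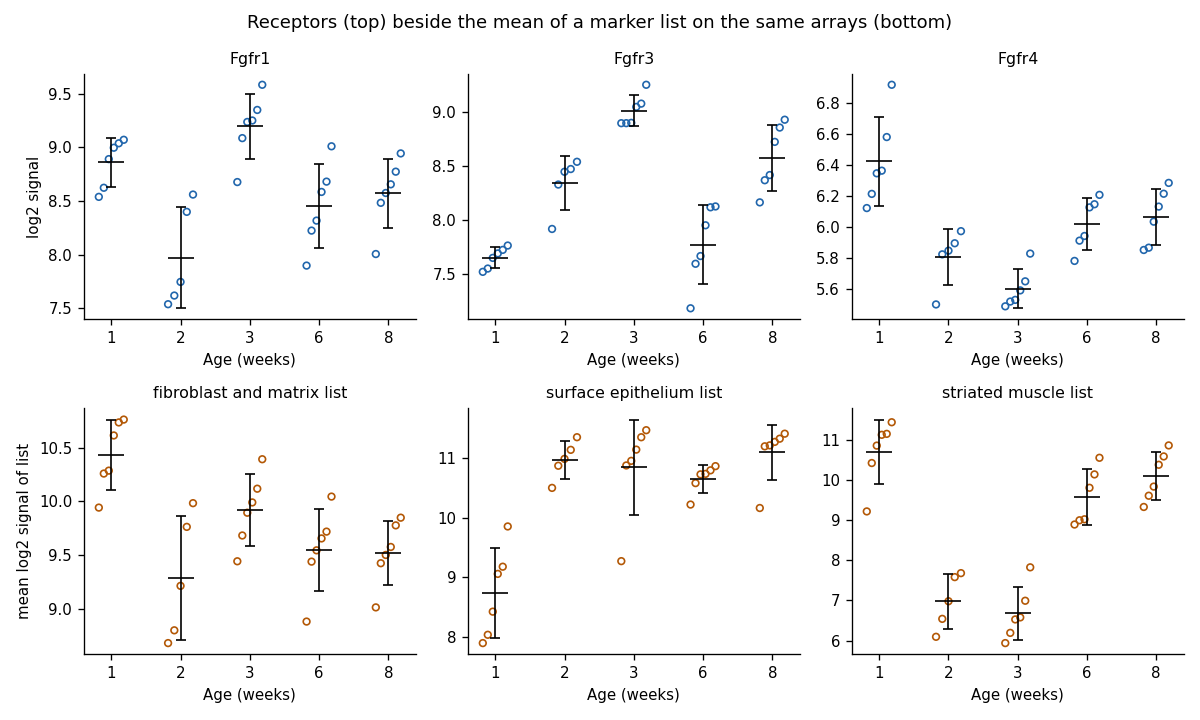
Log2 signal of Fgfr1, Fgfr3 and Fgfr4 (top) above the mean log2 signal of a marker list on the same arrays (bottom) by age in weeks, with circles for arrays (n = 6 per week, 5 in week 2) and black bars for the mean and SD. The axes differ in length, and the striated muscle list spans several units (means of 10.71 in week 1 and 6.68 in week 3) while Fgfr4 spans less than 1 (6.42 and 5.60).

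Fgfr4, which in adult tissues is best known from liver and from developing and regenerating muscle, was the receptor with the reverse pattern. Its arrays ran from 6.12 through 6.35 to 6.92 in week 1, from 5.50 through 5.85 to 5.97 in week 2 and from 5.49 through 5.56 to 5.83 in week 3. Weeks 2 and 3 lay wholly below week 1. The arrays ran from 5.78 through 6.03 to 6.21 in week 6 and from 5.85 through 6.08 to 6.28 in week 8, and those of week 8 lay wholly above those of week 3.

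Fgfr4 fell by 0.62 in week 2 versus 1 (SE 0.12, limma adjusted p = 7.17e-05) and rose by 0.42 in week 6 versus 3 (adjusted p = 0.00287). The latter became 0.11 with an adjusted p of 0.551 when the array interquartile range was a covariate. In week 8 it was still lower than in week 1, by a log2 fold change of -0.36 (limma adjusted p = 0.00987), and among the neighbours in the order of means, weeks 1, 8, 6, 2 and 3, this was the pair that passed. The 18 striated muscle markers, which include fast myosins and troponins, ordered the weeks as Fgfr4 did, with means of 10.71, 6.98, 6.68, 9.57 and 10.11 in weeks 1, 2, 3, 6 and 8. All 18 were called as downregulated in week 2 versus 1 and all 18 as upregulated in week 6 versus 3. The part of muscle content in the Fgfr4 signal was not tested. Fgfr4 lay below the median signal of all transcript clusters, as did Fgf2, Fgf7 and Fgf10.

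Fgfr2, whose splice forms serve epithelium and mesenchyme, was the 1 gene of the 10 that did not pass the F test. Its weekly medians were 8.06, 8.44, 8.63, 8.55 and 8.37 in weeks 1, 2, 3, 6 and 8, its arrays spanned 7.67 to 8.80, and all weeks overlapped. No successive difference passed, and the largest, 0.22 in week 2 versus 1, had an SE of 0.17 and a limma adjusted p of 0.255. Under quantile normalization that step was 0.45 and passed (adjusted p = 0.0135). The step between its lowest and highest weeks, week 3 versus 1, passed at 0.41 (adjusted p = 0.0377). In 4 of the 5 weeks the array with the lowest Fgfr2 was also the array with the lowest mean of the surface epithelium list, the exception being week 1. These were week 2 replicate 3 (Fgfr2 7.83, list 10.498), week 3 replicate 3 (8.09 and 9.27), week 6 replicate 3 (7.89 and 10.22) and week 8 replicate 2 (7.67 and 10.16). This match was noticed in the data and was not tested.

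Fgfrl1, a receptor that binds FGFs but lacks the tyrosine kinase, ranged from 6.83 to 7.85 over all arrays. It fell by 0.41 in week 6 versus 3 (SE 0.12, limma adjusted p = 0.00623), with overlapping arrays, and its other successive differences lay between -0.05 and 0.14 without passing.

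The promoters of the receptor with the widest range, Fgfr3, and of the pair that was highest in week 1 and lowest in week 3, Fgfr4 and Fgf7, are shown because their genes moved in opposite directions over the first 3 weeks. The windows hold 250 bases before and 50 bases after the annotated start and are from RefSeq on build GRCm38.p6, all on the plus strand. RefSeq gave 9 windows for 8 of the 10 genes, among them 2 for Fgfr3. They lie at chr5:33721474-33721773 and chr5:33722056-33722355 for Fgfr3, at chr13:55152568-55152867 for Fgfr4 and at chr2:126034408-126034707 for Fgf7. Capitals mark the GC box (GGGCGG on either strand, with overlapping matches joined) and would mark the TATA box (TATAAA on either strand).
Fgfr3 window 1: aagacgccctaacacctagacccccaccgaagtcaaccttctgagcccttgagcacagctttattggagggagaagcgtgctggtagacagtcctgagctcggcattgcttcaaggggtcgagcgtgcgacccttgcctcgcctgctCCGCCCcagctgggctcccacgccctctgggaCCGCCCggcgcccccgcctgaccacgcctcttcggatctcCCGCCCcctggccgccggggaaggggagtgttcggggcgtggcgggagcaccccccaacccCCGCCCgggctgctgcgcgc
Fgfr3 window 2: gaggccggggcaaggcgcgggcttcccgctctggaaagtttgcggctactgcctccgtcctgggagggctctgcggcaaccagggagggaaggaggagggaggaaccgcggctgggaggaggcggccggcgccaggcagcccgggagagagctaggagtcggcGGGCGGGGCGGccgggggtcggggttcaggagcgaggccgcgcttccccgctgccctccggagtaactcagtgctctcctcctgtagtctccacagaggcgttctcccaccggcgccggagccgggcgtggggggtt
Fgfr4: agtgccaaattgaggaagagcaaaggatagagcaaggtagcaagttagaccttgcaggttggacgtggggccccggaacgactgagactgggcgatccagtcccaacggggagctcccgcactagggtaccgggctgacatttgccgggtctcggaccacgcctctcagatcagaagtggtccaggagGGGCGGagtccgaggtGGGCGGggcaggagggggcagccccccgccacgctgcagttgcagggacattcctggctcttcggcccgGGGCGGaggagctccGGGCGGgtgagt
Fgf7: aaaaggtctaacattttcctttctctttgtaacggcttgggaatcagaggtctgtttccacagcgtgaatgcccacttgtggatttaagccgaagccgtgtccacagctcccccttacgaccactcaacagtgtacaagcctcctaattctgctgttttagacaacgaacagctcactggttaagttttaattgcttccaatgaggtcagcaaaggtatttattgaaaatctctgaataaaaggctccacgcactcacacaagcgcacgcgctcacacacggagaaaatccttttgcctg
The GC box occurred 4 times in the first Fgfr3 window, 2 times in the second and 4 times in that of Fgfr4, and 0 times in that of Fgf7. It occurs in 35.7% of the 32851 promoter windows of this length. None of the 4 windows held TATAAA, which is in 13.6% of them. CpG dinucleotides numbered 26 and 30 in the Fgfr3 windows, 20 in that of Fgfr4 and 11 in that of Fgf7. Over those 32851 windows the median was 7 and the quartiles were 3 and 20, so that Fgf7 lay between the quartiles and Fgfr4 at the upper one. Fgfr3 and Fgfr4 both held GC boxes, and the relation of these letters to the signals was not tested. The matches describe these letters alone, and the arrays do not tell which start was used.

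Among the ligands, Fgf2, the general fibroblast mitogen, had the smallest spread within weeks and the lowest F test p (adjusted p = 6.62e-08). Its arrays ran from 5.91 through 6.27 to 6.47 in week 1, from 5.67 through 5.73 to 5.89 in week 2 and from 5.93 through 6.10 to 6.37 in week 3. They ran from 6.43 through 6.62 to 6.83 in week 6 and from 5.70 through 5.88 to 6.04 in week 8. Each week stood clear of the one before it, with a low in week 2, a peak in week 6 and a return in week 8.

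Fgf2 fell by 0.46 in week 2 versus 1 (SE 0.10, limma adjusted p = 0.000174), rose by 0.34 in week 3 versus 2 (adjusted p = 0.00551) and rose by 0.52 in week 6 versus 3 (adjusted p = 3.03e-05). With the array interquartile range as a covariate, the week 3 versus 2 rise was no smaller, at 0.39, but no longer passed (adjusted p = 0.135). The largest step was the fall in week 8 versus 6, by 0.76 or 1.69-fold (limma adjusted p = 5.1e-07). Fgf2 was lower in week 8 than in week 1, with a log2 fold change of -0.35 (adjusted p = 0.00246). In the order of means, weeks 6, 1, 3, 8 and 2, neither 1 and 3 (adjusted p = 0.296) nor 8 and 2 (adjusted p = 0.435) passed, and the other neighbours did. None of these steps reached 2-fold.

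Fgf10, a mesenchymal signal to epithelium, shared the peak of Fgf2 in week 6. Its weekly medians were 5.44, 5.51, 5.49, 5.88 and 5.39 in weeks 1, 2, 3, 6 and 8. The arrays of week 6 ran from 5.72 to 6.43 and lay above all those of week 8, which ran from 5.35 to 5.58. Fgf10 rose by 0.44 in week 6 versus 3 (SE 0.13, limma adjusted p = 0.00471) and fell by 0.54 in week 8 versus 6 (adjusted p = 0.00165). The rise did not pass under quantile normalization (0.29, adjusted p = 0.0535) or with the array interquartile range as a covariate (0.31, adjusted p = 0.176).

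Fgf7, known as keratinocyte growth factor, varied most within weeks, with a pooled SD of 0.362. Its arrays ran from 5.85 through 6.502 to 7.09 in week 1, from 5.36 through 5.49 to 6.33 in week 2 and from 5.26 through 5.50 to 6.14 in week 3. They ran from 5.93 through 6.29 to 6.69 in week 6 and from 5.58 through 6.13 to 6.35 in week 8. Weeks 2 and 3 were the low ones, although all neighbouring weeks overlapped. Fgf7 fell by 0.78 in week 2 versus 1 (SE 0.21, limma adjusted p = 0.00205) and rose by 0.73 in week 6 versus 3 (adjusted p = 0.0031). The first of these was -0.73 with an adjusted p of 0.073 when the array interquartile range was a covariate.

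Fgf1 and Fgf18, by contrast, peaked in week 3. Fgf1, which binds all FGF receptors, had arrays between 6.69 and 7.24 in week 2 and between 7.43 and 7.81 in week 3, so that these weeks did not overlap. It rose by 0.55 in week 3 versus 2 (SE 0.12, 1.47-fold, limma adjusted p = 0.000863) and fell by 0.33 in week 6 versus 3 (adjusted p = 0.0215). With the array interquartile range as a covariate neither passed, although neither was smaller. The rise was then 0.65 (adjusted p = 0.0532) and the fall -0.41 (adjusted p = 0.0542). The fall had an adjusted p of 0.0945 under quantile normalization and of 0.0614 without week 3 replicate 3. Fgf18, known from bone and cartilage growth, had arrays between 7.10 and 7.68 in week 3 and between 6.73 and 7.10 in week 6. The highest array of week 6 (7.095) lay just under the lowest of week 3 (7.103), and Fgf18 fell by 0.51 (SE 0.12, limma adjusted p = 0.000934).

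**Figure D3:**
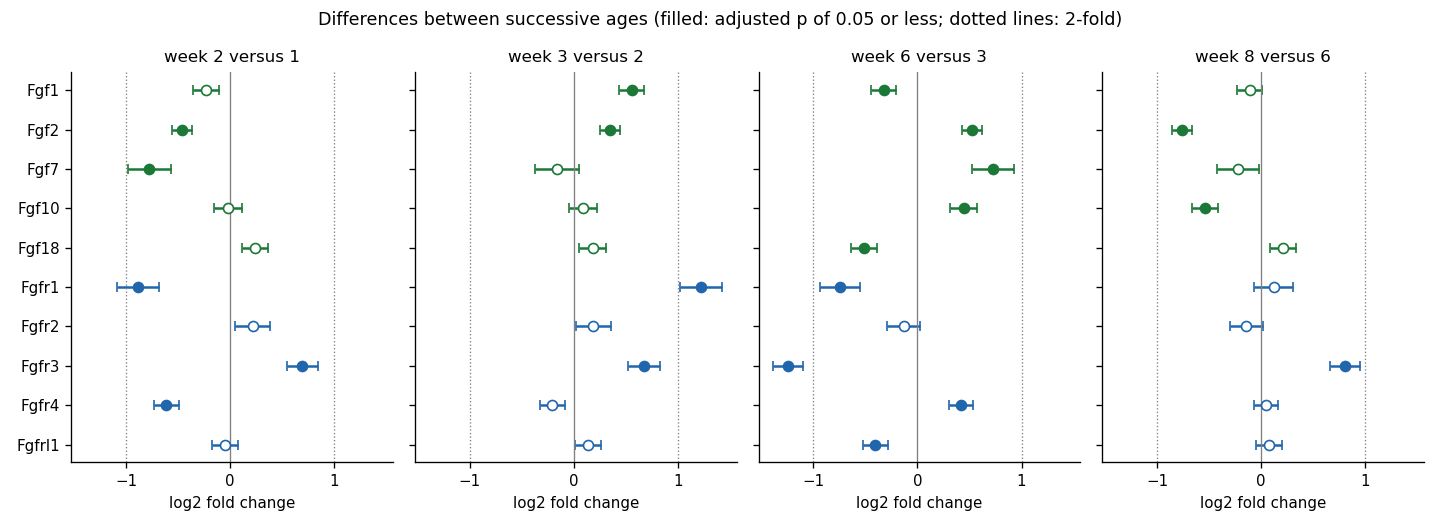
Log2 fold change with its SE for the 10 genes (ligands green, receptors blue) in the 4 successive comparisons of ages, with n = 6 arrays per week and 5 in week 2. Filled circles have an adjusted p of 0.05 or less, and dotted lines mark 2-fold. The circles of Fgfr1 in week 3 versus 2 (1.22) and Fgfr3 in week 6 versus 3 (-1.24) lie beyond the lines, and week 6 versus 3 has 9 filled circles.

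The genes most like Fgfr1 over the 29 arrays, by the root mean square difference of log2 values centred on each gene's mean, were Lrp1 at 0.150, Axl at 0.164 and Glis2 at 0.173. Those most like Fgfr3 were Plxnb1 at 0.179, Rnf44 at 0.192 and Capn15 at 0.197. The centred values of Fgfr1 and Fgfr3 themselves had root mean squares of 0.508 and 0.566, and 19937 genes were searched for each. Lrp1 is an endocytic receptor, Axl a receptor tyrosine kinase for Gas6, and Plxnb1 a semaphorin receptor.

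The rest of the pathway was counted with lists of genes. Of the 17 other FGF ligands and FGF homologous factors measured, none was called by the 2-fold rule of limma in any of the 5 comparisons, although 2 to 14 of them had an unadjusted p under 0.05. Of all transcript clusters, 3.77% to 11.5% were called in these comparisons. Fgf11 was called in week 6 versus 3 with median centring, quantile normalization or the interquartile range covariate, and Fgf12 and Fgf14 in week 8 versus 1 with array weights. By the adjusted p alone, which 65.6% of all transcript clusters passed in week 2 versus 1, 11 of the 17 rose and 3 fell there. Those that fell were Fgf12, Fgf13 and Fgf14, which are intracellular factors of neurons and muscle that bind sodium channels. The 17 together averaged 5.76 in week 1 and 6.04 in week 2, under the array medians of 6.15 to 6.37. Detection above background was not assessed. The median log2 fold change of the 17 was 0.52, beside 0.06 over all transcript clusters. With the array interquartile range as a covariate, 5 rose, 3 fell and the median was 0.22. In week 3 versus 2, where 46.8% of all transcript clusters passed, 7 of the 17 fell and 1 rose, but with that covariate none passed in either direction.

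Among the 17 coreceptors and FGF-binding proteins, 2 were called as upregulated in week 2 versus 1, Fgfbp1 and Sdc1, and 3 as downregulated, Sdc2, Sdc3 and Gpc4. In that comparison 11.5% of all transcript clusters were called. With the array interquartile range as a covariate Fgfbp1 and Sdc1 were the 2 that stayed called, and under quantile normalization the Gpc4 call was lost. Fgfbp1, a secreted carrier that releases FGFs from heparan sulfate, had a median of 5.87 in week 1 (5.40 to 6.70) and of 8.41 in week 2 (7.52 to 8.89). It rose by 2.45 on the log2 scale (SE 0.36, 5.47-fold, limma adjusted p = 1.82e-06). Sdc1, the syndecan typical of epithelia, had a median of 7.91 in week 1 (7.24 to 8.92) and of 10.06 in week 2 (9.34 to 10.22). It rose by 2.00 (SE 0.33, 4.001-fold, limma adjusted p = 1.04e-05). Both had no overlap between the weeks, and the surface epithelium list moved with them, from 8.74 to 10.97. Their lowest array in weeks 2, 3, 6 and 8 was, for both, week 2 replicate 3, week 3 replicate 3, week 6 replicate 3 and week 8 replicate 2, the arrays that were lowest in the epithelium list.

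Of the same list, Sdc3 was called as upregulated in week 3 versus 2, and Sdc3 and Hspg2 were called as downregulated in week 6 versus 3. Of all transcript clusters 4.3% and 7.58% were called in these comparisons. The second Sdc3 call was lost under quantile normalization, with the covariate and without week 3 replicate 3. Without week 2 replicate 5 or with median centring, Sdc2 and Hspg2 were called beside Sdc3 in week 3 versus 2. None of the 17 was called in week 8 versus 6, where 3.77% of all transcript clusters were. In week 8 versus 1, where 7.19% were, Fgfbp1 and Sdc1 were called as higher and Sdc2 as lower. The Sdc2 call there was lost with array weights, median centring, quantile normalization or the covariate.

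Of 11 measured enzymes that build and trim heparan sulfate, 9 fell and 1, Hs6st1, rose in week 2 versus 1 by the adjusted p alone, and Sulf2, Ext1 and Sulf1 were called. Of all transcript clusters 65.6% passed and 11.5% were called in that comparison. The list's median log2 fold change was -0.58 beside 0.06 over all transcript clusters. With quantile normalization 6 fell, 1 rose and the median was -0.39, and with the array interquartile range as a covariate 3 fell, 1 rose, the median was -0.20 and the Sulf1 call was lost. In the same step 18 of 18 striated muscle, 16 of 17 photoreceptor, 9 of 10 retinal pigment epithelium and 10 of 15 fibroblast and matrix markers were called as downregulated, and their part in these falls was not tested. Sulf2, an extracellular sulfatase, fell by 1.85 (SE 0.15, 3.59-fold, limma adjusted p = 4.41e-10), from a median of 8.38 (7.84 to 8.44) to 6.35 (6.15 to 7.01). Ext1, which polymerizes the chain, fell by 1.32 (SE 0.13, limma adjusted p = 7.28e-09), from a median of 8.52 (8.35 to 8.67) to 7.28 (6.68 to 7.69). For both genes the weeks stood apart. In week 3 versus 2, where 46.8% of all transcript clusters passed and 4.3% were called, 8 of 11 rose and 0 fell. None of the 11 rose with the covariate, and none was called. In week 8 versus 1, where 7.19% of all were called, 4 were called as downregulated, Sulf2, Ext1, Sulf1 and Hs6st2. The Ext1 call was lost with the covariate. Hs6st1 was called there with array weights, median centring, quantile normalization or the covariate, and without week 8 replicate 2. Hs6st2 was also called in week 2 versus 1 with quantile normalization or the covariate.

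Downstream of the receptors, 8 adaptors and 14 feedback inhibitors and targets were measured. Of the adaptors only Plcg1, the phospholipase that binds activated receptors, was called, in week 6 versus 3, where 7.58% of all transcript clusters were. It fell by 1.01 (SE 0.12, limma adjusted p = 4.9e-08), from a median of 8.94 (8.81 to 9.37) to 8.03 (7.60 to 8.30). This value is at the edge of the 2-fold rule, and no adaptor was called with array weights, quantile normalization or the covariate, nor without week 3 replicate 3. In week 2 versus 1, 3 of the 8 adaptors fell and 2 rose by the adjusted p alone, which 65.6% of all transcript clusters passed. This direction turned under quantile normalization, where 0 fell and 3 rose.

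Dusp4, a phosphatase that switches off MAP kinases, was the feedback gene with the largest change. Its arrays ran from 6.80 through 7.63 to 8.23 in week 1, from 4.97 through 5.22 to 5.76 in week 2 and from 5.82 through 6.47 to 6.63 in week 3. It fell by 2.36 in week 2 versus 1 (SE 0.22, 5.12-fold, limma adjusted p = 4.83e-09) and rose by 1.09 in week 3 versus 2 (adjusted p = 0.000369), a call lost with the array interquartile range as a covariate. In week 8 versus 1, Dusp4 was called as downregulated and Dusp5 as upregulated. Sprouty and Spred genes and the Etv factors, the usual readouts of FGF signaling, were not called in any of the 5 comparisons. Of all transcript clusters 3.77% to 11.5% were called in them. Among the alternatives, Etv1 was called in week 2 versus 1 when week 2 replicate 5 was left out, and Spry4 in week 6 versus 3 with median centring. By the adjusted p alone, 4 of the 14 rose and 6 fell in week 2 versus 1, 7 rose and 0 fell in week 3 versus 2, and 1 rose and 6 fell in week 6 versus 3. With the covariate these counts were 4 and 3, 1 and 0, and 1 and 3. In the main fit 65.6%, 46.8% and 54.4% of all transcript clusters passed in these comparisons.

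**Figure D4:**
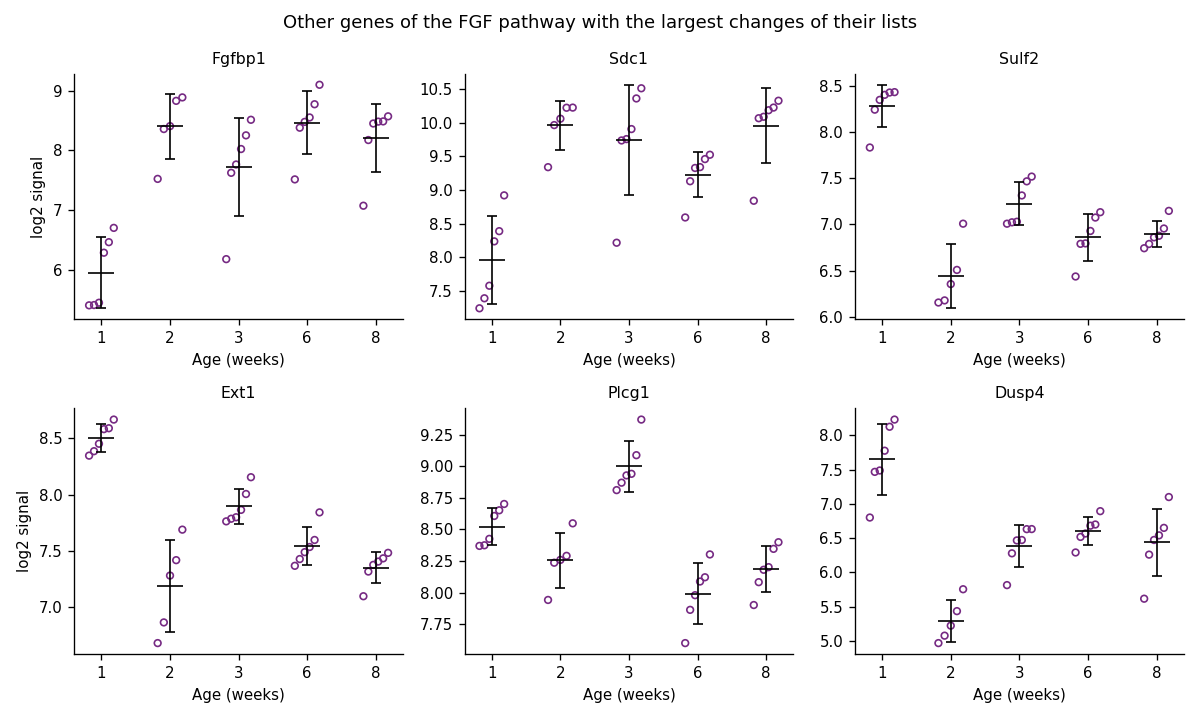
Log2 signal by age in weeks of 6 further genes of the pathway, those with the largest changes among the called genes of their lists. Circles are arrays (n = 6 per week, 5 in week 2), and black bars are the mean and SD. Fgfbp1 and Sdc1 step up between weeks 1 and 2, from means of 5.95 and 7.96 to 8.40 and 9.96, whereas Sulf2, Ext1 and Dusp4 step down, and Plcg1 is highest in week 3 at 9.002.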

How the data were processed

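Total RNA of single sclerae was hybridized to 30 arrays, 6 per age, of which 29 were analysed. The deposited table holds the authors' log2 signal per transcript cluster and array, and it was used as deposited. Robust multiarray averaging with a correction for scan date is named in the methods, whereas GCRMA and Partek 6.5 are listed in the submitters' processing notes, so the normalization is unsettled. It is also not stated whether the values precede the correction, and without scan dates the batch and the age cannot be told apart. Background correction and normalization set the size of low signals, so small changes of dim genes are the least certain. No probe-level file was used, so detection above background was not assessed, and the number of arrays limits precision.

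Of 35556 transcript clusters, 21789 carried exactly 1 symbol in the platform annotation, 1621 several and 12146 none, and a gene was represented by the brightest cluster with its symbol alone. All clusters were fitted in limma 3.58.1 (R 4.3.3) with 1 mean per week, and each comparison was adjusted on its own. SDs are over the arrays of a week, and SEs are those of the fit. The fit was also tested on simulated data.

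The members and the lists were chosen with earlier results of these data known. The genes named are the 10 members, the 2 largest changes among the called genes of each pathway list in the successive comparisons, and the 3 genes most like each member called there. Other genes called were named after their values were seen. Marker lists were given by their means. Genes of the lists without a transcript cluster of their symbol alone, among them Ndst1, Frs2, Fbn1 and Emr1, were left out. No 2 arrays held the same values, but week 2 replicate 4 equalled the mean of the other 5 arrays of its week to within 1e-04 in every cluster and was left out, and in week 6 the mean of replicates 4 and 6 equalled that of the other 4. Of 155 such divisions of a week's arrays, no other was equal. The fit therefore had 24 residual degrees of freedom, or 23 with a term for the tied arrays. The alternatives were array weights, quantile normalization, median centring, the array interquartile range as a covariate, separate fits for each pair of weeks, a replicate block, clusters with 1 symbol, brighter clusters, no fold threshold and no moderation. The fit was designed for all 30 arrays, and that fit is given as an alternative. Leaving out week 2 replicate 4 and, as alternatives, 3 further arrays, and the term for the tied arrays of week 6, were chosen after seeing the data. Promoters were read from RefSeq windows on GRCm38.p6, with those on chr18 left out, and figures were drawn with matplotlib 3.10.9 in Python 3.11.15.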

Additional observations from a re-analysis of the deposited data

Results flagged for a closer look

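Within each week, the highest or lowest array was compared with the others by Dixon's ratio at its 95% critical value for 6 arrays, or for 5 in week 2. Of 100 groups tested, 50 of them for the 10 FGF genes, 6 had an array that stood apart, and 1 of these was of the FGF genes. About 1 in 20 groups is expected to do so by chance, and the arrays of week 6 are tied by the equality given above.

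Fgfr2 had a low array in week 8 replicate 2, at a log2 signal of 7.67 where the others lay between 8.33 and 8.55. Among the marker lists, the mean of surface epithelium was low in week 3 replicate 3, at 9.27 beside 10.87 to 11.47, and in week 8 replicate 2, at 10.16 beside 11.20 to 11.41. Week 8 replicate 2 was also high for the lens fibre list, at 6.99 beside 5.81 to 6.12, and for the cartilage-type matrix list, at 6.76 beside 6.35 to 6.42. The retinal pigment epithelium list was low in week 1 replicate 2, at 8.14 beside 9.29 to 9.87.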

How the results depend on the processing

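The differences of the 10 genes were counted once for each gene, comparison and alternative. Of these values, 311 that had passed and 338 that had not stayed on their side of the threshold with the same direction. A further 13 lost the threshold, 6 gained it and 12 that had not passed changed sign. Many alternatives cannot alter a given difference, such as leaving out an array of another week, so the counts do not measure robustness. The 13 losses fell on Fgf1, Fgf2, Fgf7, Fgf10, Fgfr1, Fgfr3 and Fgfr4. With the array interquartile range as a covariate, the members that passed the adjusted p numbered 3, 0 and 5 in the first 3 successive comparisons, 0 members were called in week 3 versus 2 and 1 in week 8 versus 1, and 283 transcript clusters in all were called in week 3 versus 2. Quantile normalization gave 0 members in week 3 versus 2 and 1 in week 8 versus 1. With no fold threshold, 5, 4, 9, 3 and 3 members and 23313, 16638, 19357, 12433 and 18844 transcript clusters were counted in the 4 successive comparisons and week 8 versus 1, and 16687 clusters in week 3 versus 1. With clusters above the median signal, which leaves out Fgf2, Fgf7, Fgf10 and Fgfr4, the members that passed the adjusted p numbered 2 (week 2 versus 1), 5 (6 versus 3), 1 (8 versus 6) and 1 (8 versus 1), and 5 passed the F test. The clusters called were then 2518, 1510, 717, 1654 and 1478 (week 2 versus 1, 6 versus 3, 8 versus 6, 8 versus 1 and 3 versus 1). With clusters of 1 symbol, 2441, 702, 1137 and 352 were called in the 4 successive comparisons and 1453 in week 3 versus 1. Fewer clusters were tested in both. Without week 2 replicate 5, week 3 replicate 3 or week 8 replicate 2, the members called ranged from 0 to 1 in week 2 versus 1 and from 0 to 1 in week 8 versus 1. The values that changed sign were Fgf1 in week 8 versus 1 (0.010) and Fgfr2 (-0.078) and Fgfrl1 (-0.043) in week 3 versus 2 and Fgfrl1 in week 2 versus 1 (0.13) under quantile normalization, Fgf10 in week 8 versus 1 (0.00045) and Fgfr4 in week 8 versus 6 (-0.024) with array weights, and Fgf10 in week 8 versus 1 (0.0057) with median centring. With the covariate they were Fgf18 in week 2 versus 1 (-0.015) and in week 8 versus 1 (-0.018), Fgfr2 in week 3 versus 2 (-0.12) and in week 6 versus 3 (0.11), and Fgfr4 in week 3 versus 2 (0.18). Of the pathway lists, the number of other FGF ligands called became 1 in week 6 versus 3 with median centring, quantile normalization or the covariate, and 2 in week 8 versus 1 with array weights. Coreceptors called became 2 in week 2 versus 1 with the covariate, 3 in week 3 versus 2 with centring and 1 in week 6 versus 3 with quantile normalization. Adaptors called in week 6 versus 3 became 2 with centring and 0 with array weights, quantile normalization or the covariate. Feedback genes called became 2 in week 2 versus 1 with quantile normalization or the covariate, 0 in week 3 versus 2 with the covariate and 1 in week 6 versus 3 with centring. Without an array, coreceptors ranged from 1 to 3 in week 3 versus 2 and from 1 to 2 in week 6 versus 3, heparan sulfate enzymes from 0 to 1 in week 3 versus 2, adaptors from 0 to 1 in week 6 versus 3 and feedback genes from 1 to 2 in week 2 versus 1. The cause of the other changes was not tested.

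With all 30 arrays, or with a term for the tied arrays of week 6, the counts of members and of pathway genes called were those given above, and Fgfr1 in week 6 versus 2 passed with all 30.

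The mean over the transcript clusters of a gene gave the same values, since each member had 1, and was not run. The replicate numbers name mice of different ages and do not pair them, as deviations of same-numbered arrays correlated between -0.41 and 0.46 with a median of 0.016. With the replicate block, 4 members passed the adjusted p in week 8 versus 1 instead of 3, the addition being Fgf7 (adjusted p = 0.0387), and the counts of members in the other comparisons were those given above.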
